A study of Mus musculus with 12 samples.

Results

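The epithelial-mesenchymal regulators are 10 genes that set or mark where a carcinoma cell lies between an epithelial and a mesenchymal state, chosen by name: *Vim*, *Zeb1*, *Zeb2*, *Snai1*, *Snai2*, *Twist1*, *Epcam*, *Esrp1*, *Esrp2* and *Grhl2*. Of these, 9 of 10 were among the 15687 genes of the deposited table, and *Grhl2*, which encodes a grainyhead transcription factor of epithelial cells, was not analysed here. RNA was sequenced from 12 subcutaneous tumors that mTc11 mouse lung cancer cells formed in male C57BL6/J mice injected at 8 weeks of age, and all tumors were taken on day 24. The 6 CTL tumors came from cells with a control short hairpin RNA (shControl) and the 6 *Filip1l*-knockdown tumors from cells with a hairpin against *Filip1l*, a gene for a filamin A-interacting protein. The cells had been transduced with lentivirus, selected with puromycin and kept as mixed clones chosen by immunoblot, and hairpins against more than 1 *Filip1l* sequence were made, without a statement of which the sequenced tumors carried. How many transduced populations the 6 tumors of a group came from is not stated either, so an effect of the hairpin and a difference between transduced populations cannot be told apart. The replicates are separate tumors of the same line.

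Epithelial cells are held together by E-cadherin, tight junctions and adhesion molecules such as EpCAM, and are braced by keratin filaments. In the epithelial-mesenchymal transition, transcription factors of the SNAIL, TWIST and ZEB families bind short E-box motifs and repress epithelial genes, while vimentin and N-cadherin become more abundant. ESRP1 and ESRP2, RNA-binding proteins of epithelial cells, keep splicing in its epithelial pattern and are themselves repressed by ZEB1. In lung cancer, cells often lie at intermediate points along this axis.

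The motif bound by SNAIL and ZEB proteins, CACCTG or its reverse complement CAGGTG (both strands of the same site), was looked up in RefSeq promoter windows of GRCm38.p6, which run from 250 bases before a gene's start to 50 bases after it. Windows were listed for 5 of the 10 regulators (*Vim*, *Zeb2*, *Snai1*, *Twist1* and *Epcam*). Of all 32851 windows, 20.2% hold the motif at least once and 2.88% hold it 2 or more times. The 250 bases before the start are shown for *Epcam*, the regulator that rose most in the knockdown tumors, and for *Snai1*, the only factor among the regulators whose window holds the motif. They are shown also for *Cldn7*, a claudin that binds EpCAM. All are on the + strand, 5′ to 3′, and capitals mark the motif.
Epcam, chr17:87635729-87635978: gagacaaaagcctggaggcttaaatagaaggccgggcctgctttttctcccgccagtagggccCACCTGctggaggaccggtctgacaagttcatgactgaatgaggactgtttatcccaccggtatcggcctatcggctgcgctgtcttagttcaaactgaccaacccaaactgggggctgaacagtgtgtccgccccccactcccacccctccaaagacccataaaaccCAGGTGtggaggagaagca
Cldn7, chr11:69965171-69965420: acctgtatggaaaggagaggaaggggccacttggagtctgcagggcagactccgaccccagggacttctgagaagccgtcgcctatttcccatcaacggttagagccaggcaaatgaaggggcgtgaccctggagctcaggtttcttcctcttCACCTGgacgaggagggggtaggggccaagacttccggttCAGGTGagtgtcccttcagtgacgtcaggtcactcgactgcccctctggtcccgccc
Snai1, chr2:167537945-167538194: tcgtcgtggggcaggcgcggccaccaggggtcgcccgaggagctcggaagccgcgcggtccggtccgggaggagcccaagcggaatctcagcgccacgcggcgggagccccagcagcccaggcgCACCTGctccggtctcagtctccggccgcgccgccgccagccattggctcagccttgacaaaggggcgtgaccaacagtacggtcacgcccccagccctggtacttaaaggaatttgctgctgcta
In *Epcam* the motif starts 187 and 19 bases before the gene's start, in *Cldn7* 97 and 57 bases before it, and in *Snai1* 126 bases before it. These letters are not in the windows of *Vim*, *Zeb2* and *Twist1*. The other window listed for *Cldn7* does not hold them either. Among neighbouring genes of the pathway, the motif is in the windows of 14 of 17 epithelial adhesion and polarity genes (82.4%) and 3 of 6 epithelial transcription factors. It is in those of 0 of 9 other transcription factors tied to the transition and 1 of 10 mesenchymal markers. Of the 27025 genes with a window, 22.6% hold it. A match is a description of sequence and does not show binding in these tumors.

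*Filip1l* itself was read first as a check of the groups. It ranged from 1983 to 2542 normalized counts in CTL tumors (median 2354) and from 1670 to 2184 in *Filip1l*-knockdown tumors (median 1935). A normalized count is a gene's read count divided by the tumor's size factor. *Filip1l* fell by 0.26 on the log2 scale (standard error, SE, 0.07; limma adjusted p = 0.00998; exact two-sided permutation p = 0.00649), and 5 of the 6 knockdown tumors lay below every CTL tumor. Tumors had between 17834745 and 32419578 reads on listed genes, and the value of 3 reads, taken as the limit of detection, averaged 3.15 normalized counts for CTL and 2.91 for knockdown tumors. All 9 regulators were far above that limit in every tumor, so depth does not limit their values. Keratins and *Cdh1* were abundant in every tumor, as in a carcinoma, whereas the lung markers *Nkx2-1* and *Sftpc* were low, from 0.95 to 90.6 normalized counts and from 0 to 60.5. Of 10 lung epithelium markers, 7 were in the table. Their sum was 4239 to 6384 normalized counts in CTL tumors and 7079 to 9321 in knockdown tumors. Markers other than *Nkx2-1* and *Sftpc* thus carried that sum.

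In the *Filip1l*-knockdown tumors most regulators of the mesenchymal state were lower and some of the epithelial state higher. All 5 repressor-type transcription factors measured fell, by 0.55 (*Zeb1*) to 1.27 (*Snai2*) on the log2 scale, and *Epcam* and *Esrp1* rose by 1.51 and 0.70. *Vim* and *Esrp2* did not pass the test. At an adjusted p under 0.05, 7 of 9 regulators passed, 2 higher and 5 lower, where 41.9% of all genes passed (21.1% higher and 20.7% lower). With an absolute log2 fold change over 1 required as well, 1 was called higher (*Epcam*) and 2 lower (*Snai2* and *Twist1*), against 10.2% of all genes (6.2% higher and 3.97% lower). The groups did not overlap for 4 of 9 regulators (*Zeb1*, *Snai2*, *Twist1* and *Epcam*), against 21.5% of all genes. Their median log2 fold change was -0.55, and that of all genes was 0.0078. Many genes differed between the groups, so these shares have a high background.

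**Figure D1:**
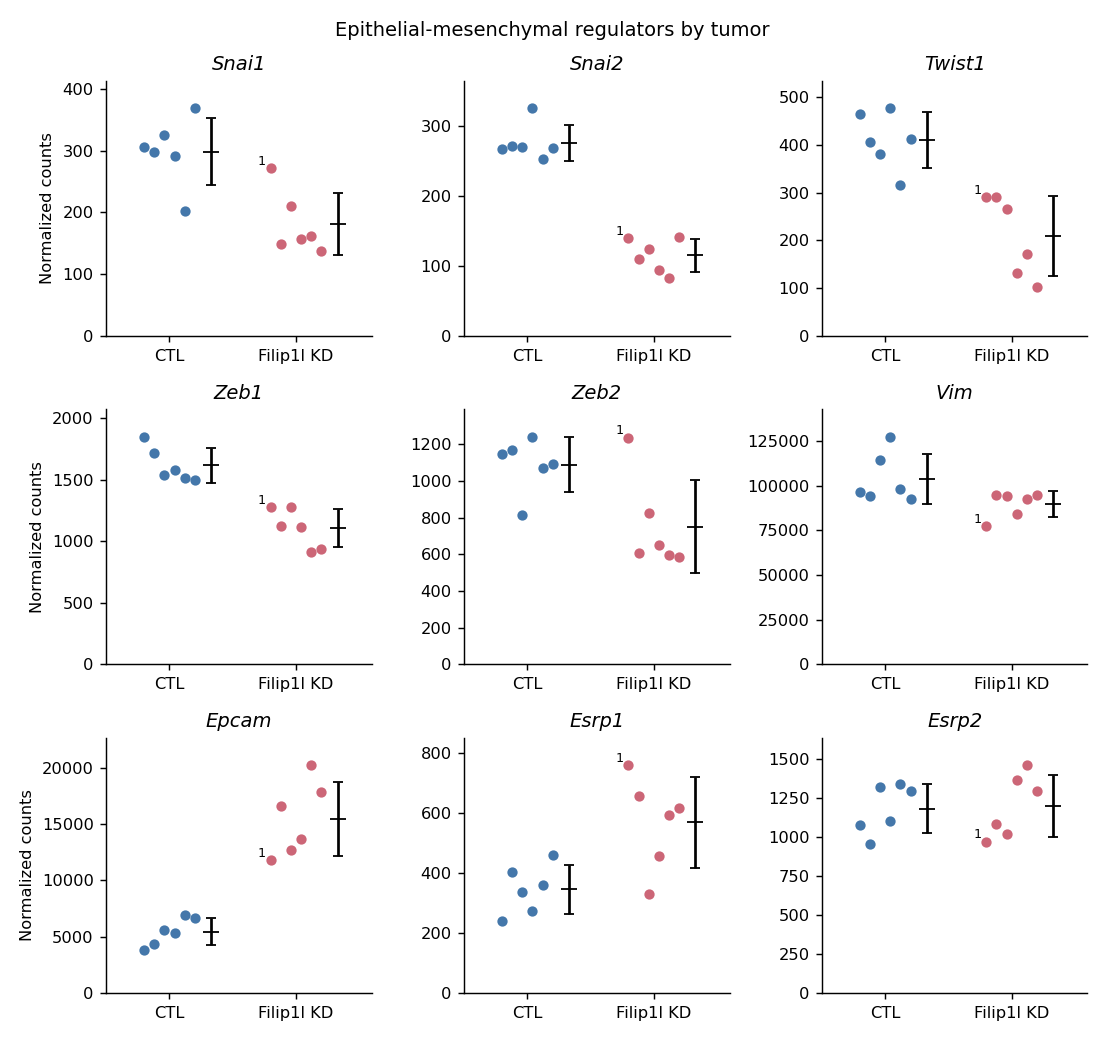
Normalized counts (vertical axes, linear, from 0) of the 9 regulators in each of the 6 CTL tumors (blue) and 6 *Filip1l*-knockdown tumors (red), with the mean and SD in black. The number 1 marks knockdown replicate 1, which lies among the CTL tumors for *Zeb2* (1235) and *Snai1* (271), while *Epcam* is at 11791 or more in every knockdown tumor and at 6904 or less in every CTL tumor.

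The SNAIL family members are zinc-finger repressors of E-cadherin. *Snai1* (ENSMUSG00000042821, chromosome 2, 167538195 to 167542814 on GRCm38) had 203 to 369 normalized counts in CTL tumors (median 302) and 137 to 271 in knockdown tumors (median 160). The knockdown tumors lay below the CTL median in 6 of 6, with an overlap made by CTL replicate 5 at 203 and by knockdown replicates 1 and 3 at 271 and 210. The mean went from 299 ± 54.4 to 181 ± 50.7 normalized counts (SD, n = 6 each), which is a log2 difference of -0.74 (SE 0.17; limma adjusted p = 0.00372; exact permutation p = 0.00649). *Snai2* (ENSMUSG00000022676, chromosome 16, 14705852 to 14709385), also known as Slug, had 252 to 325 normalized counts in CTL tumors (median 269) and 82.1 to 141 in knockdown tumors (median 117). Every knockdown tumor was far below every CTL tumor. *Snai2* thus fell 2.42-fold, by 1.27 on the log2 scale (SE 0.14; limma adjusted p = 6.63e-06; exact permutation p = 0.00216, the smallest that this number of tumors allows). The ratio of *Snai2* to *Snai1* was 0.949 ± 0.192 in CTL tumors and 0.663 ± 0.197 in knockdown tumors (SD, n = 6), and the groups overlapped for it.

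*Twist1* (ENSMUSG00000035799, chromosome 12, 33957671 to 33959829), a basic helix-loop-helix factor that drives mesenchymal programs in development, had 317 to 476 normalized counts in CTL tumors (median 409) and 103 to 290 in knockdown tumors (median 219). The groups did not overlap, but the knockdown tumors were uneven: replicates 1, 2 and 3 had 290, 290 and 266, whereas replicates 4, 5 and 6 had 132, 171 and 103. *Twist1* fell 2.09-fold, by 1.07 on the log2 scale (SE 0.24; limma adjusted p = 0.00267; exact permutation p = 0.00216). The call at an absolute change over 1 rested on the low tumors, since the log2 fold change was -0.96 without knockdown replicate 4 and -0.88 without knockdown replicate 6, with adjusted p = 0.00669 and 0.00369.

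The ZEB factors, large zinc-finger and homeodomain proteins, repress EpCAM, claudins and the ESRP genes. *Zeb1* (ENSMUSG00000024238, chromosome 18) had 1498 to 1851 normalized counts in CTL tumors (median 1561) and 916 to 1278 in knockdown tumors (median 1120). Its decrease was modest but clear of the spread between tumors, with all 6 knockdown tumors below all 6 CTL tumors and a log2 difference of -0.55 (SE 0.09; limma adjusted p = 0.000252; exact permutation p = 0.00216). *Zeb2* (ENSMUSG00000026872, chromosome 2, 44983632 to 45117395) had 813 to 1241 normalized counts in CTL tumors (median 1120.3) and 583 to 1235 in knockdown tumors (median 629). Knockdown replicate 1, at 1235, was as high as the highest CTL tumor, and the other 5 had 583 to 826. *Zeb2* fell by 0.58 on the log2 scale (SE 0.17; limma adjusted p = 0.0128; exact permutation p = 0.0260), and by 0.74 without that tumor (adjusted p = 0.000139). The *Zeb1* to *Zeb2* ratio was 1.51 ± 0.220 in CTL tumors and 1.55 ± 0.279 in knockdown tumors (SD, n = 6). *Zeb2* shares 653 exon bases (3.27%) with *Zeb2os* on the opposite strand, and since the counting is not stated to use strand, reads of these bases cannot be told apart.

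*Vim* (ENSMUSG00000026728, chromosome 2, 13573927 to 13582826), the mesenchymal intermediate filament, was by far the most abundant regulator. It had 92403 to 127209 normalized counts in CTL tumors (median 97111) and 77138 to 94613 in knockdown tumors (median 93293). The groups overlapped, since 3 CTL tumors lay between 92403 and 96186 and 4 knockdown tumors between 92478 and 94613, although all 6 knockdown tumors were below the CTL median. The log2 difference of -0.21 (SE 0.10) had a limma adjusted p of 0.108 and an exact permutation p of 0.0390. Its adjusted p was 0.0230 when tumors were rescaled to the same total.

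*Epcam* (ENSMUSG00000045394, chromosome 17, 87635979 to 87651129), a homophilic adhesion protein of simple epithelia, had 3817 to 6904 normalized counts in CTL tumors (median 5450) and 11791 to 20214 in knockdown tumors (median 15127). The lowest knockdown tumor stood well above the highest CTL tumor. *Epcam* rose 2.85-fold, by 1.51 on the log2 scale (SE 0.16; limma adjusted p = 5.79e-06; exact permutation p = 0.00216). The ratio of *Epcam* to *Vim* went from 0.0533 ± 0.0145 to 0.172 ± 0.0295, and that of *Epcam* to *Snai2* from 19.98 ± 5.30 to 143 ± 56.6 (SD, n = 6), without overlap for either.

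The ESRP splicing regulators differed from each other. *Esrp1* (ENSMUSG00000040728, chromosome 4, 11331933 to 11386783) had 239 to 460 normalized counts in CTL tumors (median 348) and 329 to 758 in knockdown tumors (median 604). Of the knockdown tumors, 4 were above every CTL tumor, replicate 4 at 456 was just under the highest, and replicate 3 at 329 lay inside the CTL range. *Esrp1* rose 1.62-fold, by 0.70 on the log2 scale (SE 0.20; limma adjusted p = 0.0116; exact permutation p = 0.0195). *Esrp2* (ENSMUSG00000084128, chromosome 8, 106130319 to 106136974) had 955 to 1338 normalized counts in CTL tumors (median 1197) and 970 to 1459 in knockdown tumors (median 1187). The groups lay on top of each other, with a log2 difference of 0.02 (SE 0.12; limma adjusted p = 0.932; exact permutation p = 0.885). This leaves room for changes in either direction, also ones larger than that error. *Esrp2* lies on a chromosome whose median gene had a log2 fold change of -0.19 over 702 genes, and with chromosome medians removed its value was 0.21 (adjusted p = 0.106). It shares 219 exon bases (5.05%) with *Nfatc3* on the opposite strand. The *Esrp1* to *Esrp2* ratio was 0.296 ± 0.0772 in CTL tumors and 0.488 ± 0.178 in knockdown tumors, and that of *Esrp1* to *Zeb1* was 0.217 ± 0.0608 and 0.524 ± 0.158 (SD, n = 6), with overlap for both.

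**Figure D2:**
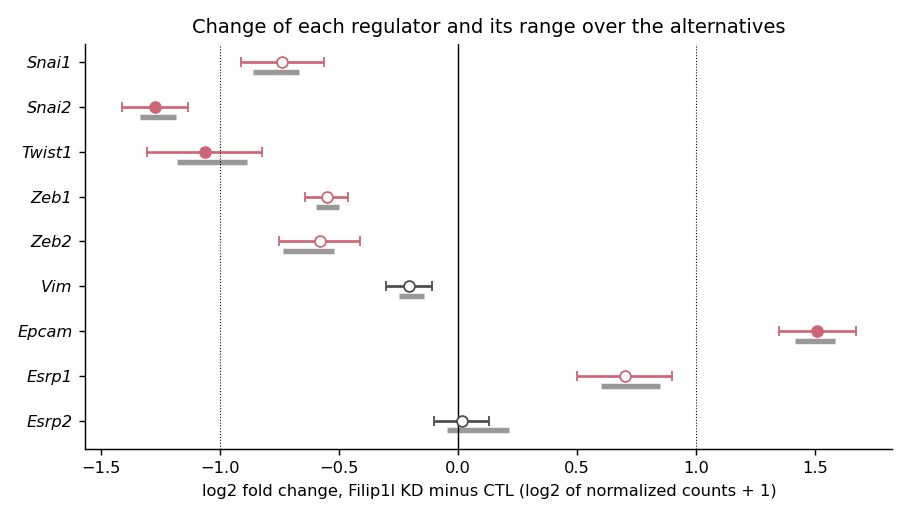
Log2 fold change of each regulator (points, *Filip1l* knockdown minus CTL, on log2 of normalized counts plus 1) with its standard error. Red marks an adjusted p under 0.05 and a filled point a change over 1 as well, dotted lines mark -1 and 1, and grey bars give the range over all alternatives and over leaving out each tumor, which crosses 0 for *Esrp2* alone and -1 for *Twist1* alone.

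Levels of different genes were compared per kilobase of exon. In CTL tumors *Vim* led with 21859 ± 2943 normalized counts per kilobase (SD, n = 6), followed by *Epcam* with 2482 ± 559, and neither overlapped the next gene. The remaining order was *Esrp2* (272 ± 36.6), *Twist1* (252 ± 35.8), *Snai1* (184 ± 33.5), *Zeb1* (158 ± 13.5) and *Snai2* (136 ± 12.5), in which each gene overlapped its neighbour. *Esrp1* (54.8 ± 12.9) and *Zeb2* (54.6 ± 7.43) were the lowest, did not differ from each other beyond their spread, and were below *Snai2* in every tumor. In knockdown tumors *Snai2* stood at 56.9 ± 11.8 and *Esrp1* at 90.1 ± 24.2, so the order of these genes was exchanged, although their ranges overlapped. *Epcam* reached 7045 ± 1499 per kilobase, still below *Vim* at 18868 ± 1526, and *Esrp2* at 276 ± 46.3 no longer overlapped *Twist1* at 128 ± 51.4. The tumors of both groups thus carried epithelial and mesenchymal transcripts together.

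Other transcription factors tied to the transition gave a similar picture in part. Of 15 listed, 13 were in the table, with 1 higher and 7 lower at an adjusted p under 0.05 and a median log2 fold change of -0.34. Of all genes, 21.1% were higher and 20.7% lower at that adjusted p. *Prrx2*, a paired-related homeobox factor of mesenchyme, had 1053 to 1311 normalized counts in CTL tumors and 194 to 474 in knockdown tumors, a log2 difference of -2.01 (SE 0.17; limma adjusted p = 8.07e-07). *Hmga2*, an architectural chromatin protein that can induce *Snai1*, fell by 1.66 (adjusted p = 1.46e-05), and *Tcf4*, which encodes the E protein E2-2, by 1.28 (adjusted p = 3.98e-05), without overlap of the groups. The other called members were both scarce and are named after their values were seen: *Twist2* went from 50.6 ± 26.4 to 18.5 ± 10.3 normalized counts (adjusted p = 0.00931) and *Snai3* from 15.2 ± 4.31 to 33.7 ± 14.4 (SD, n = 6, adjusted p = 0.0149). *Snai3* was the only member of the list that rose.

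The epithelial transcription factors were higher or did not pass. Of 11 listed, 9 were in the table, with a median log2 fold change of 0.69. At an adjusted p under 0.05, 6 rose and 0 fell, against 21.1% and 20.7% of all genes. *Elf3*, an ETS factor of epithelia, had 2293 to 4207 normalized counts in CTL tumors and 5445 to 11352 in knockdown tumors, a rise of 1.55 on the log2 scale (SE 0.19; limma adjusted p = 1.62e-05). *Ovol2*, a repressor of *Zeb1*, rose by 2.10 (adjusted p = 0.00229) at a level close to the limit of 3 reads, from 5.34 ± 5.75 to 20.9 ± 6.45 normalized counts (SD, n = 6). The size of its change depended on the pseudocount, with 2.26 at 0.5 and 1.17 at 8 (adjusted p = 0.00265 and 0.00187). *Grhl1* and *Grhl3*, relatives of *Grhl2*, had log2 fold changes of 0.09 and -0.49 (adjusted p = 0.825 and 0.256) at means of 31.2 and 58.1 normalized counts in CTL tumors, and *Ovol1* was not analysed here.

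Most adhesion genes that act beside EpCAM rose, and E-cadherin did not pass the test. Of 24 epithelial adhesion and polarity genes, 15 rose and 3 fell at an adjusted p under 0.05, against 21.1% and 20.7% of all genes. Past an absolute change of 1 as well were 6 higher and 1 lower (6.2% and 3.97% of all genes). The list median log2 fold change was 0.49. *Cldn3*, a tight junction claudin, went from 120 to 379 normalized counts in CTL tumors to 2286 to 4045 in knockdown tumors, a log2 difference of 3.76 (SE 0.25; limma adjusted p = 9.55e-08). *Cldn7* rose by 2.31, *Krt19*, a keratin of simple epithelia, by 1.65 and *Cldn4* by 1.45, with no overlap of the groups for these genes. *Cdh1*, the gene for E-cadherin and the classical target of the SNAIL and ZEB factors, averaged 28492 ± 2707 normalized counts over CTL tumors and 28678 ± 2877 over knockdown tumors (SD, n = 6), and the log2 difference was 0.01 (SE 0.08, adjusted p = 0.950). Its sign flipped when tumors were rescaled, and with chromosome medians removed it was 0.21 (adjusted p = 0.0292), and *Cdh1* lies on chromosome 8 like *Esrp2*. The only called decrease, named after its values were seen, was that of *Ap1m2*, an epithelial clathrin adaptor subunit, by 1.49 (adjusted p = 0.00137).

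Among 13 partners and proteases of EpCAM, 6 rose and 1 fell at an adjusted p under 0.05 (21.1% and 20.7% of all genes). The median log2 fold change of the 13 was 0.45. Besides *Cldn7*, *Spint1*, an inhibitor of the membrane protease matriptase, passed both thresholds, with 545 to 947 normalized counts in CTL tumors and 1853 to 2642 in knockdown tumors and a log2 difference of 1.63 (SE 0.13; limma adjusted p = 4.08e-07). The matriptase gene itself, *St14*, named after its values were seen, rose by 0.91 (adjusted p = 0.000352).

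Splicing regulators other than the ESRPs had 4 of 13 higher and 3 lower, shares near those of all genes (21.1% and 20.7%), and a median log2 fold change of -0.04. *Rbm47*, an RNA-binding protein of epithelial cells, went from 1581 ± 128 to 2628 ± 472 normalized counts (SD, n = 6), a log2 difference of 0.71 (SE 0.12; limma adjusted p = 0.000226). *Rbm24*, a muscle splicing factor named after its values were seen, was the called member, at 7.59 ± 4.56 and 62.8 ± 48.5 normalized counts. Of 6 genes whose exons ESRPs are known to splice, *Enah* alone passed, with -0.58 (adjusted p = 0.00434), where 41.9% of all genes did. *Cd44* and *Fgfr2* did not pass (adjusted p = 0.0636 and 0.840). Gene totals do not show exon usage, so splicing itself was not measured. The corepressors that ZEB and SNAIL proteins recruit had log2 fold changes from -0.26 to 0.31 and a median of -0.02. Of these 12 genes, 1 was higher and 3 lower, beside 21.1% and 20.7% of all genes. *Ctbp1* and *Ctbp2*, the corepressors of ZEB proteins, had log2 fold changes of 0.01 and -0.15 (adjusted p = 0.911 and 0.0565). The sign of *Ctbp1* flipped when tumors were rescaled. *Ctbp2* passed the test when they were rescaled (adjusted p = 0.0280 and 0.0238), without CTL replicate 3 (0.0126) and without knockdown replicate 4 (0.0302). Of 10 genes of SNAIL protein turnover, 1 was higher and 5 lower (21.1% and 20.7% of all genes). The median of the 10 was -0.18, and none of them passed an absolute change of 1.

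**Figure D3:**
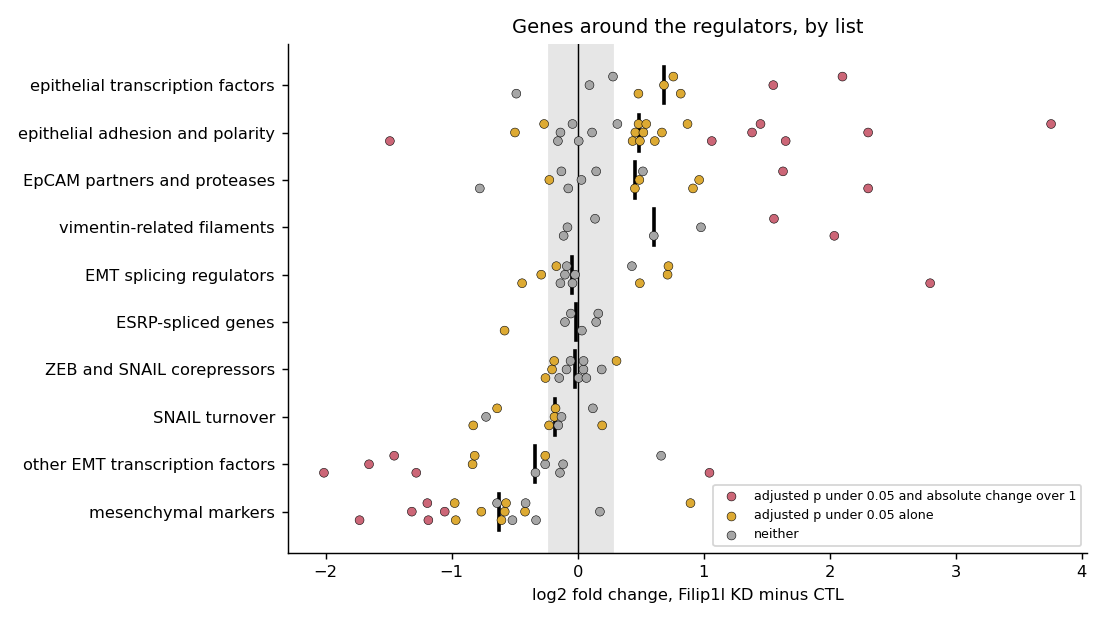
Log2 fold changes (*Filip1l* knockdown minus CTL) of the genes around the regulators, 1 point a gene, in 10 lists, with the list median as a black bar and the middle 50% of all genes (-0.23 to 0.28) in grey. The epithelial lists lie mostly to the right of 0 and the mesenchymal markers (median -0.62) mostly to the left, and *Cldn3* at 3.76 is the farthest point.

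Most mesenchymal markers fell. Of 18 listed, 12 fell and 1 rose at an adjusted p under 0.05, against 20.7% and 21.1% of all genes. Past an absolute change of 1 as well were 5 lower and 0 higher (3.97% and 6.2% of all genes). The list median log2 fold change was -0.62. *Cdh2*, the gene for N-cadherin, had 1538 to 2521 normalized counts in CTL tumors and 484 to 793 in knockdown tumors, a log2 difference of -1.73 (SE 0.14; limma adjusted p = 6.05e-07). *Cdh11* fell by 1.32, the matrix protein gene *Tnc* by 1.19 and *Fn1*, which encodes fibronectin, by 1.19 (adjusted p = 0.00252, 0.000102 and 0.000725). The receptor kinase gene *Axl*, named after its values were seen, fell by 1.06 (adjusted p = 2.49e-05). In *Cdh11*, *Tnc* and *Fn1* the groups overlapped. With chromosome medians removed the log2 fold change of *Cdh11* was -1.12 (limma adjusted p = 0.00832). Among 7 filament genes related to *Vim*, *Des*, the muscle filament desmin, was called, from 723 ± 304 to 3682 ± 2715 normalized counts (SD, n = 6), and *Prph*, named after its values were seen, from 21.9 ± 10.97 to 59.3 ± 31.0.

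The tumors were bulk tissue, in which fewer cells of a type and less RNA per cell cannot be told apart, and fibroblasts express *Vim*, the ZEB, SNAIL and TWIST genes and most of the mesenchymal markers. The summed level of 10 fibroblast markers was 162190 to 265282 normalized counts in CTL tumors (median 233405) and 76273 to 255974 in knockdown tumors (median 119531). Knockdown replicate 1 was the high tumor at 255974, and the other 5 had 76273 to 160375, below every CTL tumor. Of the 10 markers, 3 fell (*Col1a1*, *Col1a2* and *Thy1*) and 0 rose (20.7% and 21.1% of all genes), and 7 did not pass. The median log2 fold change of the 10 was -0.47. *Col1a1*, *Col1a2* and *Col3a1* are also on the list of mesenchymal markers. The defining marker *Pdgfra* had 373 to 717 and 289 to 652 normalized counts (adjusted p = 0.122), and *Dcn* a log2 fold change of 0.05 (adjusted p = 0.899). *Pdgfra* was thus a small part of the sum. The sum is set by the more abundant markers and is not a measure of fibroblast number. The part of fibroblasts in the decrease of the regulators was not tested.

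Other lineages differed in direction. For comparison, 21.1% of all genes were higher and 20.7% lower at an adjusted p under 0.05, and 6.2% were called higher. Of 8 endothelial markers 6 rose, with a sum of 3687 to 4457 normalized counts in CTL tumors and 4401 to 6896 in knockdown tumors, and all 5 neutrophil markers were called higher (278 to 352 and 742 to 1153). Skeletal muscle markers were uneven between tumors (1921 to 10493 and 4062 to 82421), with 6 of 7 called higher, which is where *Des* and *Rbm24* are normally expressed. Macrophage markers, which include cells that express *Zeb2*, summed to 15797 to 22141 and 13890 to 25663, with 1 of 8 past the test. T cell markers gave 0 of 5 (660 to 1777 and 735 to 1431) and pericyte and smooth muscle markers 1 of 6, lower (4847 to 8637 and 3577 to 6452). Adipocyte markers, 3 of 5 in the table, had 2 called higher (188 to 389 and 398 to 746), and skin epidermis markers, 4 of 6 in the table, had 2 lower (1158 to 3950 and 1493 to 3670). Markers of simple epithelium, where EpCAM is normally found, rose in 4 of 5 with *Cdh1* the exception (145493 to 190818 and 203302 to 376213). *Krt8*, *Krt18*, *Krt19* and *Cdh1* are also on the list of epithelial adhesion and polarity genes. Of 7 lung epithelium markers, 3 rose, 1 of them called, and 4 did not pass (4239 to 6384 and 7079 to 9321). The part of these cell types in the regulators' changes was not tested.

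Within each group of 6 tumors, *Zeb1* and *Epcam* ran in opposite directions. In CTL tumors Pearson's r between their log2 values was -0.96 (exact permutation p = 0.00278; Spearman's rho -0.94, exact p = 0.0167), and -0.89 without the 2 tumors farthest from the median of *Zeb1*. In knockdown tumors r was -0.94 (exact permutation p = 0.00556; rho -0.89, exact p = 0.0333), and -0.80 without the 2 farthest. Among the 72 relations computed, all 36 pairs of regulators in each group, 6 had an unadjusted p under 0.05 and 0 had a Benjamini-Hochberg adjusted p under 0.05. Both *Zeb1* to *Epcam* relations had an adjusted p of 0.2, the lowest of the 72, and 720 pairings of 6 tumors allow no p below 0.00139. The tight relation of *Zeb2* to *Snai1* in knockdown tumors (r = 0.97, exact permutation p = 0.00972; rho 0.83, exact p = 0.0583) rested on knockdown replicate 1 and another extreme tumor, since r was 0.50 without the 2 farthest.

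No relation of a regulator to a marker sum passed adjustment. The r of *Snai1* with the fibroblast sum was 0.87 in CTL tumors (exact permutation p = 0.0222; rho 0.94, exact p = 0.0167) and 0.88 in knockdown tumors (exact permutation p = 0.0181; rho 0.71, exact p = 0.136). Without the 2 tumors farthest from the median r was 0.36 in CTL tumors, where the size of r depended on those tumors, and 0.93 in knockdown tumors. With the macrophage sum *Snai1* had r = 0.94 in knockdown tumors (exact permutation p = 0.0125; rho 0.71, exact p = 0.136), and 0.32 without the 2 farthest. In knockdown tumors *Snai1* also had the same order as the endothelial sum (r = 0.94, exact permutation p = 0.00139; rho 1, exact p = 0.00278; r = 0.90 without the 2 farthest). *Vim* had r = 0.95 with the simple epithelium sum in knockdown tumors (exact permutation p = 0.0167; rho 0.71, exact p = 0.136), but -0.22 without the 2 farthest, and 0.68 in CTL tumors (exact permutation p = 0.140). *Epcam* had r = 0.83 with the same sum in knockdown tumors (exact permutation p = 0.0278; rho 0.89, exact p = 0.0333; r = 0.95 without the 2 farthest). Of 90 relations between regulators and 5 marker sums computed in the groups, 13 had an unadjusted p under 0.05 and 0 had an adjusted p under 0.05, with a lowest of 0.125.

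**Figure D4:**
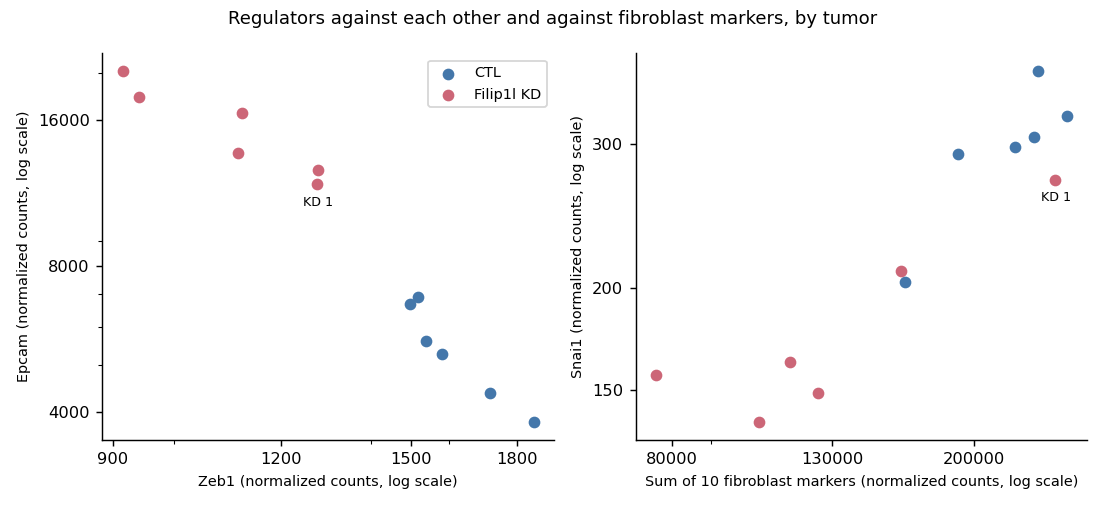
Left, *Epcam* against *Zeb1*, and right, *Snai1* against the sum of 10 fibroblast markers, in each of the 6 CTL (blue) and 6 *Filip1l*-knockdown (red) tumors, in normalized counts on log axes. Within each color the left points descend (r = -0.96 and -0.94) and the right points ascend (r = 0.87 and 0.88), and knockdown replicate 1 (KD 1) lies at 255974 on the fibroblast axis, among the CTL tumors.

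The genes most like each regulator were read from deviations around the group means over the 12 tumors, as Pearson's r among the 12887 genes whose mean reached 50 normalized counts, as a description. *Zeb2* was closest to *Trabd2b* (r = 0.96), *Vcan* (0.96) and *Wipf1* (0.95), *Snai1* to *Ror2* (0.97), *Nfatc4* (0.96) and *Lipo3* (0.94), and *Zeb1* to *Comp* (0.95), *Pros1* (0.94) and *Pla2r1* (0.93). Such deviations leave out the difference between the groups. *Comp*, unlike *Zeb1*, was higher in knockdown tumors (log2 fold change 1.94, limma adjusted p = 0.0497), while *Pros1* and *Pla2r1* had log2 fold changes of -1.13 and -1.57. *Vcan* encodes the matrix proteoglycan versican and *Ror2* a receptor of Wnt5a. *Epcam* was closest to *Tmem150b* (0.95), *Tmem184a* (0.95) and *Mkrn1* (0.94), and *Esrp2* to *Osbpl7* (0.96), *Eps8l2* (0.95) and *Sgsm3* (0.95). *Vim* was closest to *Gnai2*, *Cfap298* and *Mfsd5* (each 0.95). The nearest genes of *Snai2* (*Mr1*, *Ggct* and *Arsk*, 0.91 to 0.87), *Twist1* (*Enpep*, *Lbh* and *Ado*, 0.88 to 0.86) and *Esrp1* (*Gabrp*, *Kiz* and *Fads6*, 0.88 to 0.84) were less close. By the same measure *Zeb1* and *Epcam* had r = -0.90, *Zeb1* and *Esrp2* -0.82, and *Epcam* and *Esrp2* 0.76. The points share libraries and scaling.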

How the data were processed

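Total RNA of 12 tumors was sequenced. The authors trimmed reads with Trimmomatic, aligned them with STAR, used featureCounts for uniquely mapped reads and divided each count by DESeq2 size factors, and this deposited signal is not corrected for gene length. The submitters' processing notes name mm10 and the versions Trimmomatic 0.36, STAR 2.5.2b and Subread 1.5.2. Values are whole multiples of a step, but in 3 tumors the step lies within 1% of 1, so no test on counts was run.

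Here log2 of the value plus 1 was compared with limma 3.58.1 in R 4.3.3 (trend of variance on mean, Benjamini-Hochberg adjustment over 15687 genes, calls needed adjusted p under 0.05 with a log2 fold change beyond -1 or 1). A filter at a mean of 5 removed 0 genes. Exact permutation tests went through every arrangement of the tumors, or all 720 pairings for correlations within a group. With 6 tumors a group, p-values measure the spread between tumors of the same cell line. Read totals come from the steps, and limits of 3 reads cover counting error only. Symbols, positions and exon lengths came from GENCODE vM21 on GRCm38, with 15661 of 15687 identifiers found. Figures used matplotlib 3.10.9.

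The regulators, 10 pathway lists (123 of 128 genes in the table) and 11 marker lists were chosen with earlier results of these data known. Named beside the regulators were, per list, up to 4 genes a direction past both thresholds with a mean of at least 50, *Cdh1*, *Cdh2*, *Fn1*, the OVOL, GRHL and CTBP genes and *Rbm47*, the 3 genes most like each regulator, and defining markers. As alternatives the pseudocount was set to 0.5 or 8, the filter was dropped or raised to a mean of 20, tumors were rescaled to the 75th percentile or the same total, and the trend was dropped, replicate number entered as a block, chromosome medians removed and each tumor left out. On simulated data of this comparison, with 200 of 15687 genes changed by 2 on the log2 scale, 200 were called and 0 unchanged genes were. The changed genes had a mean of at least 50, and all genes were given the same dispersion. Such a setting checks that the code runs properly and cannot show how well smaller changes, like those of the regulators, are called. A few results for single genes are left out of this text.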

Additional observations from a re-analysis of the deposited data

Results flagged for a closer look

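Of 62 groups of 6 tumors tested, formed by the regulators, *Filip1l* and the other named genes, 7 held a tumor far from its group, and chance flags about 1 in 20 groups. Knockdown replicate 1 stood apart for *Zeb2* (1235 normalized counts), *Cdh11* (2334) and *Tnc* (16697), where it was high, and for *Rbm47* (1718), where it was low. The same tumor had the highest fibroblast, macrophage, endothelial and T cell sums among knockdown tumors (255974, 25663, 6896 and 1431 normalized counts). It also had the lowest simple epithelium and lung epithelium sums among them (203302 and 7079). CTL replicate 4 was high for *Snai2* (325), CTL replicate 6 high for *Ovol2* (16.8) and CTL replicate 3 low for *Ctbp2* (2393). The cause of these values was not tested.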

How the results depend on the processing

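Direction and side of the threshold held for *Snai1*, *Snai2*, *Zeb1*, *Zeb2*, *Epcam* and *Esrp1* under all alternatives. The number of regulators called lower was 2, and 1 to 2 when each tumor was left out, with *Twist1* lost without knockdown replicates 4 and 6. *Vim* passed the test when rescaled to the same total (-0.25). Reversed values, all near 0, were those of *Cdh1* (-0.0034 rescaled to the 75th percentile, -0.033 to the same total, -0.020 to 0.062 leaving out tumors), *Ctbp1* (-0.0038, -0.034, -0.0057 to 0.031), *Esrp2* (-0.026 to the same total, -0.045 to 0.073) and *Grhl1* (-0.096 to 0.24), and the cause was not tested. Replicate numbers did not pair tumors (correlations of deviations -0.269 to 0.0990, 0 of 6 CTL tumors most like the knockdown tumor of their own number). With replicate number as a block 1554 genes were called, against 1596, and 1 regulator was higher and 2 lower, as without it. Rescaling moved the median of all genes by less than 0.1. *Ovol2* drops out with a filter at a mean of 20. Depth limits *Ovol2*, *Rbm24*, *Sftpc* and *Nkx2-1*, which reach 3 reads or fewer in some tumors.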
